A study of Mus musculus with 19 samples.

Results

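The enzymes that turn squalene into cholesterol were examined in single mouse blastocysts, the preimplantation stage with an inner cell mass and an outer trophectoderm. The 9 genes were chosen by symbol as steps of the pathway after squalene, and all 9 were among the 14173 genes of the deposited table: Sqle, Lss, Cyp51, Msmo1, Nsdhl, Hsd17b7, Ebp, Sc5d and Dhcr7, in pathway order. The choice was made with earlier results of these data known. The study compared 10 Control embryos with 9 Padi6-mutant embryos, with 1 library of polyadenylated RNA per embryo. Padi6 encodes a cytoplasmic protein of the oocyte, and the mutant embryos came, by the series' design text, from oocytes carrying the Padi6P620A mutation. The labels give the genotype of the comparison embryos as Control and do not name a strain, a sire, an age or a litter. Embryos of both groups were sampled as blastocysts, so embryos that stopped earlier are not represented. A culture for outgrowth is described in the labels, without saying which embryos went through it. Embryos were taken as independent replicates, and p-values would be too low where littermates were sampled.

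Cholesterol is made in the endoplasmic reticulum from acetyl-CoA. The first part of the pathway builds squalene, an open chain, and the part after squalene oxidises it, closes it into the ring sterol lanosterol, removes methyl groups and moves or removes double bonds until cholesterol is reached. Most of these genes are classical targets of SREBP-2, the transcription factor encoded by Srebf2, which is released from the membrane when sterols are low. In mouse and human, loss of Nsdhl, Ebp, Sc5d or Dhcr7 disturbs development.

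In Padi6-mutant blastocysts, 8 of the 9 enzymes after squalene had lower transcript levels than in Control blastocysts, and Ebp was the exception. The fall was largest for Sqle, at 5.84-fold, and Cyp51, at 4.87-fold, and smallest for Nsdhl, at 1.94-fold. All folds are taken from differences on the log2(scaled count + 1) scale, where a scaled count is a read count multiplied by 1 factor per library. The median difference of the 9 genes was -1.32 on the log2 scale, against -0.10 over all genes. Genes were called at an adjusted p under 0.05 in a limma fit over all 14173 genes. In that fit 12% of all genes were called lower and 14.6% were called higher, and 0 of the 9 members were called higher. All 9 members were above 0 in all 19 libraries, and the 2 groups overlapped for every member.

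Libraries differed in ways that touch these values. Control libraries had 30 to 247 of the listed genes at 0, and Padi6-mutant libraries 113 to 596. Padi6-mutant 6, 8, 9 and 10 had over 400 genes at 0 and stood apart from the other libraries. Without these 4 libraries, 6 of the 9 members were called lower, against 6.64% of all genes. With each library's number of detected genes as a term in the fit, the detection covariate from here on, 4 of the 9 members (Sqle, Cyp51, Msmo1 and Hsd17b7) were called lower, against 3.52% of all genes. With a trend on transcript length and GC content taken out of each library (the length and GC correction), 8 of the 9 members were called lower, against 10.2% of the genes with a length. Padi6 itself was at 6.53 ± 1.503 (SD, n = 10) in Control and 6.49 ± 2.16 (SD, n = 9) in Padi6-mutant embryos on the log2 scale. Its difference was -0.04 (SE 0.78, limma adjusted p = 0.976), and since the mutation changes the protein's sequence, this level does not check the labels. The sum of scaled counts over the table lay between 36253472 and 53088449 per library, and the original depth was not used here.

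Markers of the blastocyst's cell types were read beside these values. Of 6 measured inner cell mass markers 3 were called lower, and their summed scaled counts ran from 23698 to 56562 in Control and from 11835 to 34396 in Padi6-mutant embryos. Of 5 measured primitive endoderm markers 3 were called lower, with sums of 9229 to 41278 in Control and 8594 to 14954 in Padi6-mutant embryos. In the limma fit none of 7 trophectoderm markers was called, nor was any at an unadjusted p under 0.05, with sums of 214912 to 403858 and 107686 to 476620. Single abundant genes carried much of each sum: Control medians were 23829 for Pou5f1 against 37955.5 for the inner cell mass sum. They were 12902.5 for Gata6 against 21165 for primitive endoderm, and 147478 for Krt8 against 286212 for trophectoderm. Without the 4 libraries 1 inner cell mass and 1 primitive endoderm marker were called lower, and with the detection covariate limma called 0 of either list, with 1 of each at an unadjusted p under 0.05. Sox2 was at 0 in 1 library (Padi6-mutant 10) and Gata4 at 0 in 2. None of 8 cumulus and granulosa markers was among the listed genes. Sox17, a primitive endoderm factor, was at 27 scaled counts or fewer in Padi6-mutant 3, 6, 9 and 10, whose mean log2 level over the 9 members was 10.8, 10.8, 9.43 and 10.8. It was at 16 in Control 9, whose mean over the members was 11.6. In whole embryos, fewer cells of a type cannot be told apart from less RNA per cell, and the part of cell composition in the members' differences was not tested.

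Because SREBP factors act with NF-Y, which binds CCAAT, and with Sp1, which binds GC boxes, the promoters of the members were read for these letters. RefSeq promoter windows (assembly GRCm38.p6, 250 bases before to 50 bases after the start) matched 8 of the 9 members; Sqle was not matched. The stretches from 180 to 51 bases before the start are shown for Lss and Hsd17b7, which fell, and for Ebp, which did not, all in the direction of the gene. Capitals mark matches on either strand: the NF-Y box CCAAT, seen as ATTGG when it lies on the other strand, the GC box GGGCGG, seen as CCGCCC there, and the E-box CACGTG, which reads alike on both.
Lss, GRCm38.p6 chr10:76531425-76531554, plus strand: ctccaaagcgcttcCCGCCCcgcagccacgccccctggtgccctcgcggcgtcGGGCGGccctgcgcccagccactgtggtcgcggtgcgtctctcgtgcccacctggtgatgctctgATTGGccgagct
Hsd17b7, GRCm38.p6 chr1:169969256-169969385, minus strand: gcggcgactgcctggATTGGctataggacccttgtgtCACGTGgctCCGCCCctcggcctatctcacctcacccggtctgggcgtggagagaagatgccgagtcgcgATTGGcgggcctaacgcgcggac
Ebp, GRCm38.p6 chrX:8193563-8193692, minus strand: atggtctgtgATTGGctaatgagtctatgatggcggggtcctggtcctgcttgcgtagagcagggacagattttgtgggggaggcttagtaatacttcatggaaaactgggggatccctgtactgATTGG
The Ebp stretch held 2 CCAAT matches, as did that of Hsd17b7, while that of Lss held 1. The GC box match of Ebp was at -33 from the start, outside the stretch shown. Among other members that fell, the same stretch of Msmo1 held both boxes. That of Cyp51 held no CCAAT match (its match was at -29), and that of Nsdhl no whole GC box match (its match was at -52). That of Sc5d held neither box. The 8 matched members had 10 windows, since Dhcr7 has several. CCAAT was in at least 1 window of 8 of 8 members, against 41.1% of 27025 genes, and GGGCGG in 8 of 8, against 38.2%. The E-box CACGTG was in windows of 3 members (Hsd17b7, Sc5d and Dhcr7), against 8.09% of genes. The core of the sterol regulatory element, CACCCCAC, was in 0 of the 10 member windows, against 2.87% of 32851 windows, and its variant CACCCCAT was also in 0, against 1.10%. Both strands were searched, for exact matches alone, and no match overlapped one of another motif. A site that differed from these letters at any position was not counted, so the 0 does not show that the members lack a sterol regulatory element. These letters describe the windows and do not show binding.

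Sqle encodes squalene epoxidase, which adds the oxygen that later becomes the hydroxyl of cholesterol and is a rate-limiting step of the pathway. Scaled counts of Sqle in Control embryos ran from 1799 (Control 8) through a median of 6438 to 15850 (Control 2). In Padi6-mutant embryos they ran from 199 (Padi6-mutant 9) through a median of 1386 to 2201 (Padi6-mutant 6). Every Padi6-mutant embryo was below the Control median, 6 of 9 were below the lowest Control, and 9 of 10 Controls were above the highest Padi6-mutant. Control 8 was the Control among the mutant values. The means were 12.5 ± 1.14 (SD, n = 10) and 9.99 ± 1.15 (SD, n = 9) on the log2 scale, a difference of -2.55 (SE 0.46, limma adjusted p = 2.78e-04).

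Lss encodes lanosterol synthase, which folds the squalene epoxide into the ring system of lanosterol. Control embryos held 955 (Control 10) to 16225 (Control 2) scaled counts of Lss, median 4741, and Padi6-mutant embryos 792 (Padi6-mutant 9) to 2956 (Padi6-mutant 6), median 1420. All 9 Padi6-mutant embryos were below the Control median, but Controls 5, 8, 9 and 10 lay within the range of the mutants. Lss had the widest Control spread of the members (SD 1.42 on the log2 scale, against 0.64 in Padi6-mutant embryos). Its difference was -1.57 on the log2 scale (SE 0.45, limma adjusted p = 0.0133), a 2.96-fold fall. The adjusted p was 0.0763 without the 4 libraries named above and 0.126 with the detection covariate. The exons of Lss overlap an antisense gene, and the library kit does not mark strand, so reads of the pair could not be separated.

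Cyp51 encodes the cytochrome P450 that takes a methyl group off lanosterol. Its scaled counts ran from 699 (Control 10) through a median of 3708 to 9003 (Control 2) in Control embryos, and from 204 (Padi6-mutant 7) through 817 to 1984 (Padi6-mutant 2) in Padi6-mutant embryos. Padi6-mutant embryos fell into high and low values: 2, 10, 6, 3 and 5 held 817 or more, and 8, 4, 9 and 7 held 311 or fewer. The difference was -2.28 on the log2 scale (SE 0.49, limma adjusted p = 0.00133), a 4.87-fold fall. Its exons overlap Akap9 on the opposite strand, whose own difference was -0.02 (limma adjusted p = 0.969).

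Msmo1, Nsdhl and Hsd17b7 encode the enzymes that together strip the paired methyl groups from the sterol ring. Msmo1, the methyl oxidase, had scaled counts of 3694 (Control 10) to 16130 (Control 4) in Control embryos, median 9116. In Padi6-mutant embryos it had 1191 (Padi6-mutant 9) to 6399 (Padi6-mutant 6), median 2872. Of the 9 Padi6-mutant embryos 6 were below the lowest Control, and Padi6-mutant 2 and 6 were the embryos above 5000. The SD of Msmo1 was 0.70 on the log2 scale in both groups, and its difference was -1.32 (SE 0.29, limma adjusted p = 0.00183), a 2.50-fold fall.

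Nsdhl, the X-linked dehydrogenase that releases the oxidised methyl group, had the smallest of the 8 falls. Scaled counts ran from 892 (Control 5) through 2036 to 3934 (Control 6) in Control embryos and from 517 (Padi6-mutant 6) through 1069 to 1848 (Padi6-mutant 10) in Padi6-mutant embryos. The order of the mutants differed from that of the other members, since Padi6-mutant 6, among the highest for Sqle, Lss and Msmo1, was the lowest for Nsdhl. Padi6-mutant 9, the lowest for Sqle, Lss and Msmo1, was above the mutant median at 1268. The difference was -0.96 on the log2 scale (SE 0.26, limma adjusted p = 0.00937), and the adjusted p was 0.0843 with the detection covariate.

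Hsd17b7, the reductase that completes each round of methyl removal, ran from 463 (Control 5) through 1987.5 to 3110 (Control 6) scaled counts in Control embryos. It ran from 150 (Padi6-mutant 8) through 554 to 1063 (Padi6-mutant 2) in Padi6-mutant embryos. Controls 5, 8 and 10 were the Controls within the mutant range, and 4 of 9 Padi6-mutant embryos were below the lowest Control. The difference was -1.76 on the log2 scale (SE 0.38, limma adjusted p = 0.00139), a 3.40-fold fall.

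Ebp, the X-linked isomerase that shifts a double bond within the ring, was not called. Embryo sex was not used in any fit, and its part in the values of the X-linked members Nsdhl and Ebp was not tested. Its scaled counts ran from 512 (Control 8) through 3430 to 7518 (Control 6) in Control embryos, and from 1720 (Padi6-mutant 9) through 3502 to 7126 (Padi6-mutant 3) in Padi6-mutant embryos. Of the 9 Padi6-mutant embryos 5 were above the Control median and 4 below, and none was below the lowest Control. The difference was 0.21 on the log2 scale (SE 0.38, limma adjusted p = 0.724), with a 95% confidence interval of -0.59 to 1.00. That interval leaves out falls of the size seen for the other 8 members, whose smallest was -0.96, but not a rise of up to 1.00. Without Control 8 the Ebp difference was -0.08, without the 4 libraries 0.63 and with the detection covariate 0.61, and it was not called in any of these fits.

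Sc5d and Dhcr7 encode late steps, a desaturase that sets a double bond into the ring and the reductase that ends one branch of the pathway in cholesterol. Sc5d ran from 649 (Control 10) through 1711 to 2877 (Control 4) scaled counts in Control embryos and from 247 (Padi6-mutant 7) through 1007 to 1411 (Padi6-mutant 10) in Padi6-mutant embryos. Padi6-mutant 7 and 8, at 247 and 258, were the lowest, and all 9 mutants were below the Control median. The difference of Sc5d was -1.10 on the log2 scale (SE 0.36, limma adjusted p = 0.0270), a 2.14-fold fall. This call was lost under more alternatives than that of any other member. Among these, the limma adjusted p was 0.0636 with the detection covariate, 0.0508 without Control 2, 0.0552 without Padi6-mutant 7, 0.0565 without Padi6-mutant 8 and 0.0668 without the 4 libraries with many genes at 0.

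Dhcr7 ran from 2616 (Control 5) through 4817.5 to 11507 (Control 2) scaled counts in Control embryos and from 1353 (Padi6-mutant 8) through 1992 to 4992 (Padi6-mutant 10) in Padi6-mutant embryos. Padi6-mutant 10 was the mutant above the Control median, and 6 of 9 mutants were below the lowest Control. The difference was -1.18 on the log2 scale (SE 0.29, limma adjusted p = 0.00403), a 2.26-fold fall. With the detection covariate the adjusted p was 0.0726.

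**Figure D1:**
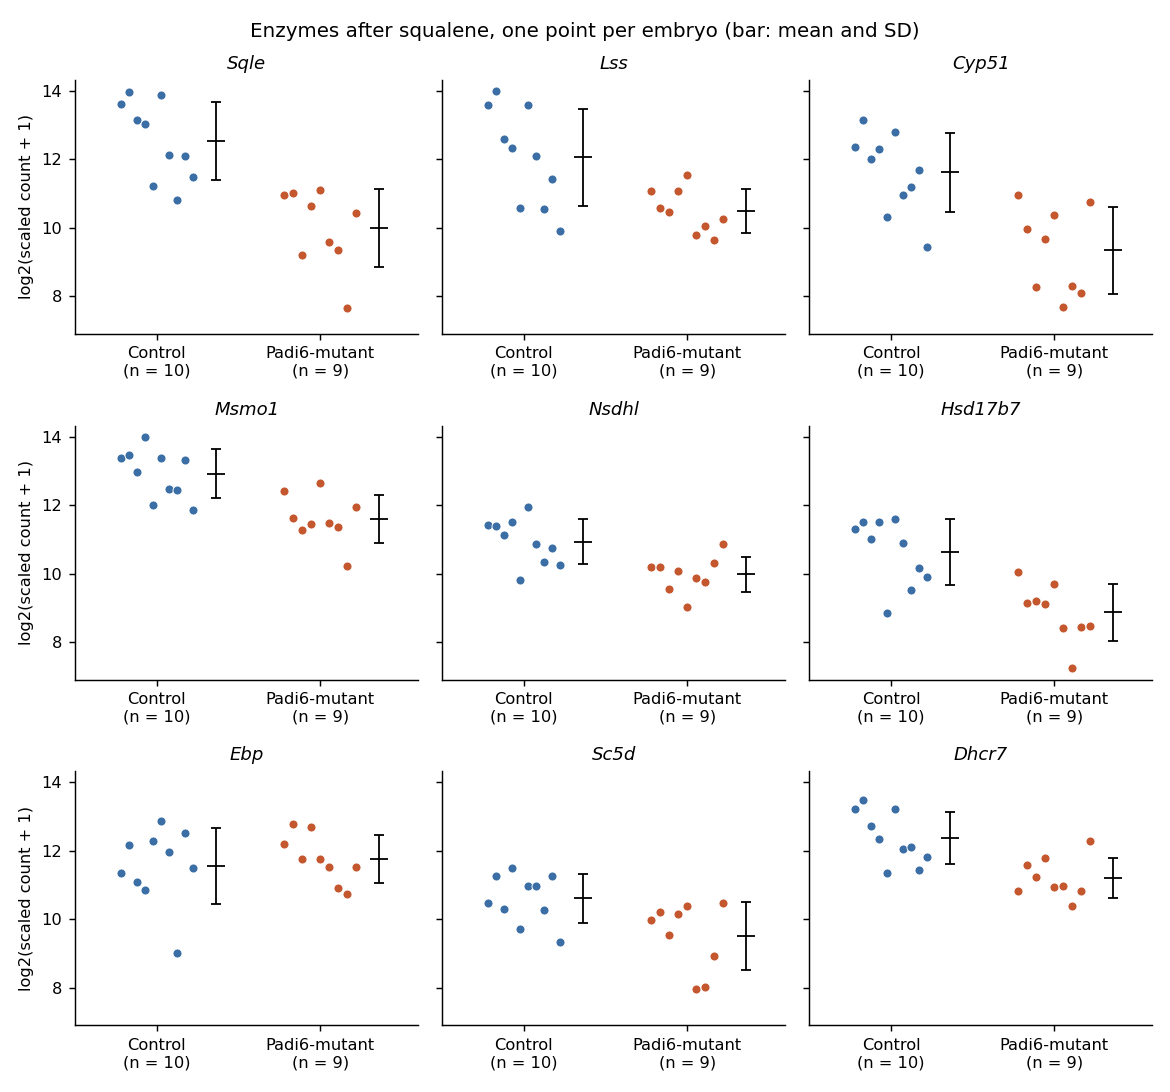
The log2(scaled count + 1) of each of the 9 genes is plotted for 10 Control and 9 Padi6-mutant embryos, 1 point per embryo, with the mean and SD as a bar beside the points. For Sqle 9 of 10 Control points lie above the highest Padi6-mutant point, while for Ebp the mutant points lie within the Control range.

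Compared per kilobase of transcript, the order of the members differed between the groups. In Control embryos Msmo1 was highest at 4199 ± 1911 scaled counts per kilobase (SD, n = 10), followed by Sqle at 2783 ± 1924, Dhcr7 at 2366 ± 1238 and Ebp at 2128 ± 1207. Lss (1351 ± 1153), Sc5d (1028 ± 448), Cyp51 (1022 ± 675) and Nsdhl (988 ± 430) came next, and Hsd17b7 was lowest at 406 ± 214. Each neighbouring pair in this order differed by less than the larger of its SDs, except Nsdhl and Hsd17b7. In Padi6-mutant embryos Ebp was highest at 2225 ± 1093 (SD, n = 9), before Msmo1 at 1678 ± 783 and Dhcr7 at 999 ± 449. Sc5d (518 ± 270), Nsdhl (491 ± 174), Sqle (460 ± 268), Lss (337 ± 154) and Cyp51 (224 ± 171) followed, and Hsd17b7 was again lowest at 115 ± 60.3. Here too neighbours differed by less than the larger SD, except Dhcr7 and Sc5d. Sqle thus moved from place 2 of 9 to place 6, and from the 91.2 to the 60.3 percentile of all genes per kilobase. Ebp stayed at the 88.4 and 87.4 percentile.

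**Figure D2:**
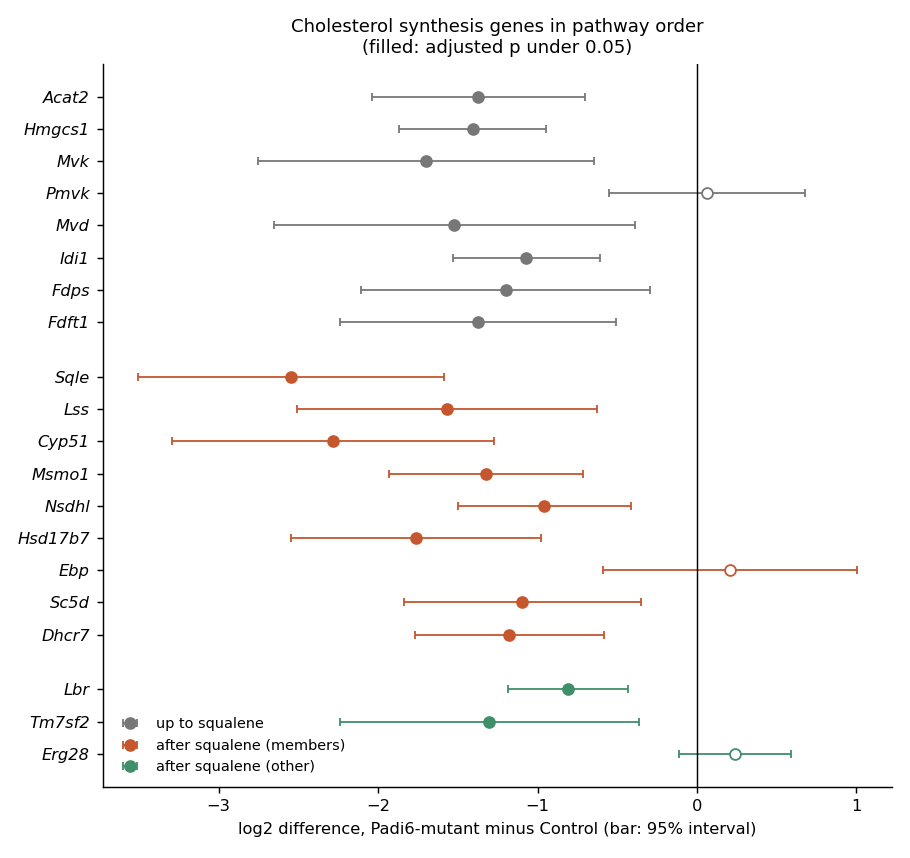
The log2 difference, Padi6-mutant minus Control, is shown with its 95% confidence interval for 8 genes up to squalene, the 9 members and 3 other genes after squalene, with filled points where the adjusted p was under 0.05. Among the members Sqle at -2.55 lies farthest left, and Ebp at 0.21 is the open point.

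The mean level of the members varied from embryo to embryo within each group, described here with no test. The mean of the 9 log2 values was 11.7 ± 0.81 in Control embryos (SD, n = 10; 10.6 to 12.7) and 10.3 ± 0.63 in Padi6-mutant embryos (SD, n = 9; 9.43 to 11.0). Of the 10 Control embryos 7 were above the highest Padi6-mutant mean, and 4 of 9 Padi6-mutant embryos were below the lowest Control mean. Controls 5, 8 and 10 were low, at 10.7, 10.7 and 10.6, within the range of the mutants, whereas Controls 2, 6 and 1 were high, at 12.7, 12.7 and 12.3. The 4 mutants with over 400 genes at 0 averaged 10.1 ± 0.78 (SD, n = 4) and the other 5 averaged 10.4 ± 0.54 (SD, n = 5). Among the latter, Padi6-mutant 7 at 9.70 and 4 at 10.1 were below every Control.

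**Figure D3:**
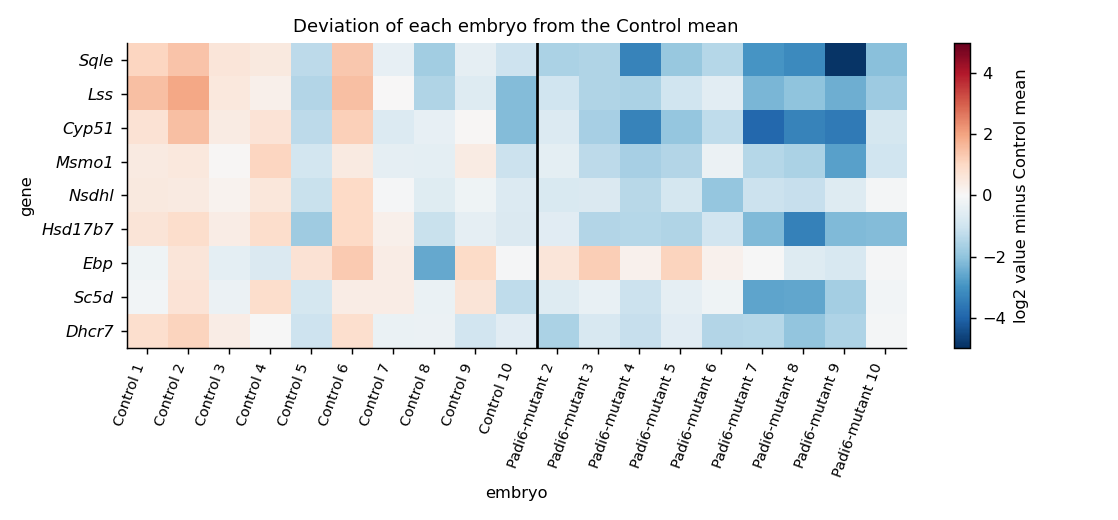
Each cell is 1 gene in 1 embryo, coloured by its log2 value minus the Control mean of that gene, with Control embryos left of the line and Padi6-mutant embryos right of it. Controls 5, 8 and 10 are low in most rows, and the Ebp row differs from the others among the mutants.

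The likeness of each member to the other 8 was measured as Pearson's r between deviations from the group means over 19 embryos. These points share library scaling and depth. Sqle had the highest r at 0.90, followed by Cyp51 at 0.87, Lss at 0.87, Hsd17b7 at 0.82, Msmo1 at 0.77, Sc5d at 0.73 and Dhcr7 at 0.68. Nsdhl stood at 0.59, made up of 0.93 among Control and 0.00 among Padi6-mutant embryos. Ebp was lowest at 0.40, with 0.26 among Control and 0.73 among Padi6-mutant embryos.

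Ratios of neighbouring steps within an embryo do not depend on how a library was scaled, and show where members changed unequally. Of 8 neighbouring pairs, 4 differed between the groups by exact permutation of the genotypes (two-sided, 92378 assignments), adjusted over the 8 pairs. The log2 ratio of Lss to Sqle was -0.48 ± 0.48 (SD, n = 10) in Control and 0.50 ± 0.75 (SD, n = 9) in Padi6-mutant embryos, a shift of 0.98 (exact permutation adjusted p = 0.00498). Sqle thus fell by more than Lss, and 8 of 9 mutants were above the Control median of this ratio. The ratio of Msmo1 to Cyp51 rose by 0.96 (exact permutation adjusted p = 0.0222), above the Control median in 8 of 9 mutants; with the length and GC correction the shift was 0.82 (exact permutation adjusted p = 0.0560).

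Both ratios with Ebp shifted. That of Ebp to Hsd17b7 was 0.94 ± 1.29 (SD, n = 10) in Control and 2.91 ± 0.65 (SD, n = 9) in Padi6-mutant embryos, a shift of 1.97 (exact permutation adjusted p = 0.00498), and all 9 mutants were above the Control median. That of Sc5d to Ebp shifted by -1.30 (exact permutation adjusted p = 0.0222), with all 9 mutants below the Control median. So the difference of Ebp was itself distinct from those of its neighbours in the pathway. Without the 4 libraries with many genes at 0 the shifts were 0.80, 1.05, 2.07 and -1.67 for the 4 pairs in pathway order, each with an exact permutation adjusted p under 0.05.

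The other 4 pairs did not pass. The shift was -0.72 for Cyp51 to Lss (exact permutation adjusted p = 0.0773), -0.81 for Hsd17b7 to Nsdhl (exact permutation adjusted p = 0.0609), 0.37 for Nsdhl to Msmo1 (exact permutation adjusted p = 0.355) and -0.08 for Dhcr7 to Sc5d (exact permutation adjusted p = 0.825). Leaving out single mutants moved 3 of them past the threshold. Cyp51 to Lss passed without Padi6-mutant 2 (-0.85) or 10 (-0.92), Hsd17b7 to Nsdhl without 2 (-0.93), 4 (-0.90) or 6 (-1.03), and Nsdhl to Msmo1 without 6 (0.62). Padi6-mutant 6 had the lowest Nsdhl of all 19 embryos, and its Nsdhl to Msmo1 ratio of -3.63 was the lowest of all.

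**Figure D4:**
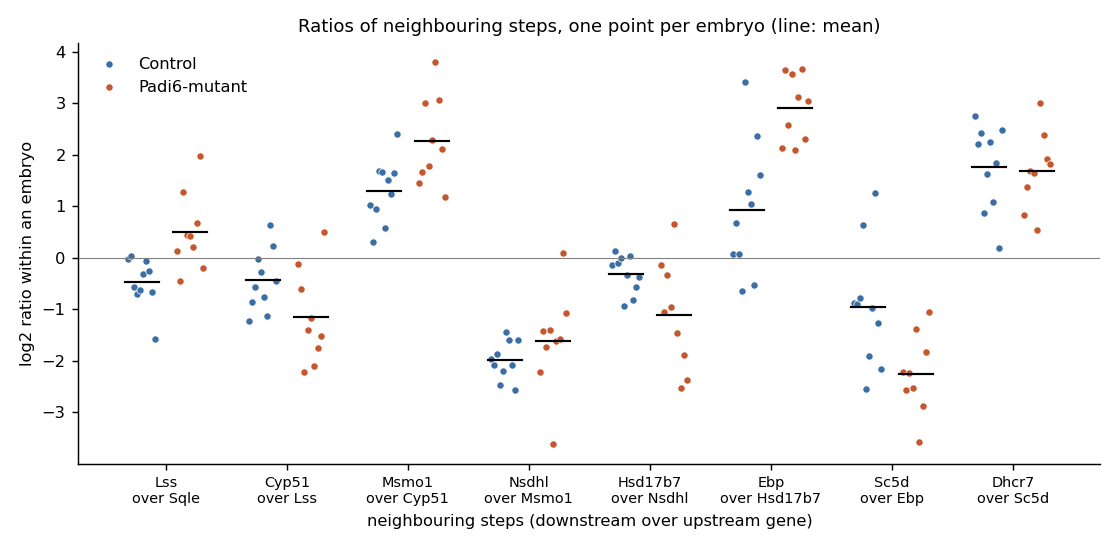
The log2 ratio of each gene to the one before it in the pathway is shown for each embryo, with a line at the group mean. For Ebp over Hsd17b7 the Padi6-mutant points lie at 2.09 and above, and for Sc5d over Ebp they lie at -1.05 and below.

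Other genes of the part after squalene were read from a list. Lbr and Tm7sf2 encode reductases acting after Cyp51, and Erg28 encodes a scaffold of the methyl-removing enzymes. Of these 3 genes 2 were called lower and 0 higher, with a median of -0.81. Lbr, which also anchors the lamina at the nuclear envelope, fell by 0.81 on the log2 scale (SE 0.18, limma adjusted p = 0.00216). Tm7sf2 was low, at 117 to 663 scaled counts in Control and 19 to 215 in Padi6-mutant embryos, and its difference was -1.30 (SE 0.45, limma adjusted p = 0.0369). Its adjusted p rose above 0.05 in 8 of 19 fits that left out a single library, up to 0.0732. Erg28 did not pass, at 0.24 (limma adjusted p = 0.309), and at -0.36 with the length and GC correction.

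The part of the pathway that builds squalene was read from a list of 8 genes. Of these 7 were called lower and 0 higher, with a median of -1.37, while Pmvk did not pass, at 0.06 (limma adjusted p = 0.901). The count called lower was 2 without the 4 libraries with many genes at 0 and also 2 with the detection covariate. Hmgcs1, an early synthase of the pathway, fell by 1.41 on the log2 scale (SE 0.22, limma adjusted p = 6.62e-05). Idi1, the isomerase of the isoprene unit, fell by 1.07 (limma adjusted p = 0.00109), and Acat2, the thiolase at the start, stood at -1.37 (limma adjusted p = 0.00306). For Acat2 the adjusted p was 0.0853 with the detection covariate and 0.0517 without the 4 libraries. Mvk, the kinase of mevalonate, fell by 1.70 (limma adjusted p = 0.0166; 0.234 with the detection covariate and 0.0942 without the 4 libraries).

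Several enzymes after squalene need electrons from partners. Por, the reductase that serves Sqle and Cyp51, fell from a Control median of 2830.5 scaled counts (1455 to 6524) to 1414 (791 to 2245), a log2 difference of -1.11 (SE 0.26, limma adjusted p = 0.00299). It was the 1 of 5 electron donors called, and the median of the 5, which also hold cytochrome b5 genes, was -0.32. Of 3 genes for the degradation of the sterol enzymes, 0 were called by limma at an adjusted p under 0.05, and 1 had an unadjusted p under 0.05. Marchf6, the ligase that marks squalene epoxidase for destruction, was at -0.31 (limma adjusted p = 0.223) and Syvn1, a ligase of the same organelle, at 0.57 (limma adjusted p = 0.09996). With the length and GC correction Syvn1 was at 1.03 (limma adjusted p = 0.00659).

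Among the 7 genes of the SREBP machinery 5 were called lower and 0 higher, with a median of -0.73; without the 4 libraries 3 were called and with the detection covariate 2. Srebf2 fell from a Control median of 6303 scaled counts (2772 to 9861) to 2264 (509 to 4211), a log2 difference of -1.73 (SE 0.35, limma adjusted p = 7.59e-04). The Srebf2 difference was -1.14 without the 4 libraries, -1.19 with the detection covariate and -1.22 with the length and GC correction, and it was called in each of these fits. All 9 Padi6-mutant embryos were below the Control median, and Control 5 was the Control within the mutant range. Mbtps1, a protease that cuts SREBP proteins, fell by 0.73 (limma adjusted p = 0.00146; 0.0564 with the detection covariate). Srebf1 fell by 0.85 (limma adjusted p = 0.0267), but its difference was -0.34 with the length and GC correction (limma adjusted p = 0.269). The limma adjusted p of Srebf1 was 0.227 with the detection covariate and 0.131 without the 4 libraries. Insig1, which holds SREBP proteins back when sterols are high and is itself a target of theirs, fell by 0.86 (limma adjusted p = 0.0329). The Insig1 call was lost in 10 of 19 fits that left out a single library, with an adjusted p of up to 0.0694. It was also lost with the length and GC correction, at -0.74 (limma adjusted p = 0.0731). Insig1 was called without the 4 libraries, at -1.16, and with the detection covariate, at -1.33.

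Of 4 genes of sterol uptake and transport read here 2 were called lower, and of 5 measured genes of sterol export, its control or storage 3 were called higher and 1 lower. Without the 4 libraries these counts were 1 lower for uptake, and 1 higher and 1 lower for export. Scarb1, a receptor for high-density lipoprotein, was at -1.16 on the log2 scale (limma adjusted p = 0.0218; 0.357 with the detection covariate) and Npc1, which moves cholesterol out of lysosomes, was at -0.59 (limma adjusted p = 0.0188; 0.135 with the length and GC correction).

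Abca1, which exports cholesterol, ran from 7 (Control 4) through 246 to 638 (Control 5) scaled counts in Control embryos, against 434 to 1781 in Padi6-mutant embryos, median 700. All 9 mutants were above the Control median. The log2 difference of Abca1 was 1.97 (SE 0.58, limma adjusted p = 0.0139), and 1.82 without the 4 libraries (limma adjusted p = 0.0859). Its size varied with the processing, at 1.64 with a pseudocount of 32 and 1.47 to 2.17 with single libraries left out. Mylip, a ligase that limits lipoprotein uptake, rose by 1.64 (limma adjusted p = 0.0125; 0.0991 without the 4 libraries) from a Control median of 71.0 scaled counts to 219. Abcg1, another exporter, rose by 1.12 (limma adjusted p = 0.0325), a call lost in 6 of 19 fits that left out a single library (up to 0.0700). Nr1h2, which encodes a sterol-sensing nuclear receptor that acts on these 3 genes, fell by 1.01 (limma adjusted p = 0.00337; 0.0756 with the detection covariate).

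**Figure D5:**
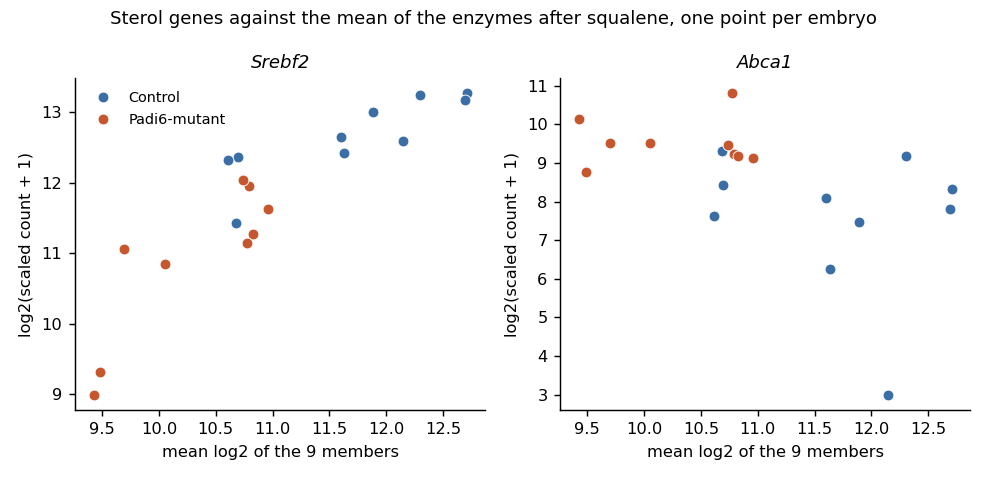
Srebf2 and Abca1 on the log2(scaled count + 1) scale are plotted against the mean log2 value of the 9 members, 1 point per embryo. Srebf2 is low in the Padi6-mutant embryos, where the members' mean is at 11.0 or less, and Abca1 lies at 434 scaled counts or more in all of them.

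As a comparison within the same organelle, 12 genes for general functions of the endoplasmic reticulum were read. Of these 2 were called lower (Sec61a1 at -0.60 and Pdia4 at -0.46) and 2 higher (Sec61b at 2.58 and Rpn1 at 0.75), and their median was 0.08. Without the 4 libraries the limma adjusted p was 0.0818 for Sec61a1 and 0.107 for Pdia4, while Sec61b and Rpn1 were called higher in that fit too. With the length and GC correction Sec61b was at 1.22 on the log2 scale.

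Genes outside these lists whose deviations were most like those of the members' mean were ranked by Pearson's r over the 19 embryos. The 10 highest were Rdh11 (0.91), Psmd2 (0.84), Pgs1 (0.84), Aacs (0.83), Scd1 (0.83), Coq9 (0.81), Grn (0.80), Slc11a2 (0.80), Thap11 (0.80) and Acly (0.79). Acly, which makes cytosolic acetyl-CoA, fell by 1.66 on the log2 scale (limma adjusted p = 3.59e-05), Scd1, a fatty acid desaturase, was at -1.33 (limma adjusted p = 0.00342), and Psmd2, a proteasome subunit, at -0.87 (limma adjusted p = 7.78e-04). Rdh11, a retinol dehydrogenase, fell by 1.80 (limma adjusted p = 0.00526; 0.0962 with the detection covariate) and Aacs, which activates acetoacetate, was at -1.58 (limma adjusted p = 0.00897; 0.0894 with the detection covariate). Pgs1 fell by 0.71 (limma adjusted p = 0.0410), a call lost in 13 of 19 fits without a single library. Coq9, Grn and Slc11a2 did not pass, at -0.25, -0.27 and -0.32. Thap11 was at -0.74 (limma adjusted p = 0.0540), and passed with quality weights (0.0163), among genes above the median level alone (0.0415) and in 5 of 19 fits without a single library.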

How the data were processed

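Polyadenylated RNA of 19 single blastocysts (10 Control, 9 Padi6-mutant) was captured on oligo-dT beads, amplified by PCR and made into libraries with Nextera XT, per the labels' protocols. Reads were processed with Trim Galore 0.4.4 and HISAT2 2.1.0, and GRCm39 and mm39 are named, per the submitters' processing notes; the counting tool and annotation are not given in the sources used here. The deposited table holds log2(scaled count + 1) for 14173 genes; taken back to a linear scale, values lie within 1.96e-07 of whole numbers, and the upper quartile is 2322 scaled counts in each library. Each gene was above 0 in 9 or more libraries, and no low-value filter was added. No library was a duplicate (Spearman's rho of at most 0.972 between any pair).

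Groups were compared on these log2 values with limma 3.58.1 in R 4.3.3 (trend, two-sided, no covariate), with p-values adjusted over all genes (Benjamini-Hochberg, threshold 0.05); the script was tested on simulated data. Lists were described by counts. Lengths came from GENCODE M 21 for 13357 genes (94.2%). Alternatives were other scalings, a pseudocount of 32, a level filter, quality weights, a robust fit, a covariate, a block for the library number, a length and GC trend (lowess, span 0.3), and left-out libraries. Named genes were the members, fixed sterol genes, Padi6 and up to 4 called genes with the smallest p of each list. Where none was called, up to 2 were named. The 10 genes most like the members' mean, within the limits given above, were added. Some genes that meet the rule or belong to the lists are not reported here, and list counts leave them out. Members and lists were chosen with earlier results of these data known.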

Additional observations from a re-analysis of the deposited data

Results flagged for a closer look

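Ebp in Control 8 was far below the other Control embryos, at 9.003 on the log2(scaled count + 1) scale, or 512 scaled counts, against 1848 or more in the other 9. Its gap to the next embryo was 0.478 of the whole Control range. This was the 1 such embryo in 20 groups of values examined (9 or 10 embryos each), and chance alone gives about 1 in 20.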

How the results depend on the processing

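The direction of the 8 lowered members held under every alternative tried, and Sqle, Cyp51, Msmo1 and Hsd17b7 stayed past the threshold under all of them. With the detection covariate (the number of detected genes), members called lower numbered 4, all genes called lower 499 and higher 1308, and 4 members missed the threshold: Lss (-1.34), Nsdhl (-0.87), Sc5d (-1.27) and Dhcr7 (-0.97). Without the 4 libraries with over 400 genes at 0, 941 genes were called lower, and Lss (-1.46) and Sc5d (-1.04) missed it. Quality weights gave 2689 genes called lower, and a test of the genes above the median level alone 1242 called higher, since fewer genes were tested. Same-numbered libraries correlated above 0.1 in 1 of 9 pairs (-0.07 to 0.15), and 1 of 9 correlated best with its own number. Such correlations cannot show whether same-numbered embryos shared a litter. A replicate block over 18 libraries gave 987 genes and 6 members called lower. Nsdhl, at -0.90 (limma adjusted p = 0.0579), and Sc5d, at -1.11 (limma adjusted p = 0.0619), missed the threshold under it. Leaving out each library in turn gave 7 to 8 members and 1224 to 2026 genes called lower, Sc5d at -1.24 to -0.90 and Ebp at -0.078 to 0.35. It gave shifts of -0.92 to -0.58 for Cyp51 over Lss, 0.15 to 0.62 for Nsdhl over Msmo1, -1.03 to -0.63 for Hsd17b7 over Nsdhl and -0.26 to 0.062 for Dhcr7 over Sc5d. Removing the length and GC trend gave -0.94 for Cyp51 over Lss, which passed, 0.82 for Msmo1 over Cyp51, which did not, and 0.37 for Dhcr7 over Sc5d. That trend turned Padi6 to 0.22, Erg28 to -0.36 and Grn to 0.090, none of them called. The covariate turned Grn to 0.040. Padi6 stood at 0.042 with quality weights, 0.12 with a pseudocount of 32 and -0.39 to 0.52 without single libraries. Except where the construction is named, the cause was not tested. The values carry no count of original reads, so no counting interval was given.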
